A study of Mus musculus with 44 samples.

Results

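The antiviral interferon-stimulated genes are mRNAs that cells make after they sense virus, bacterial products or type I interferon, and here they are 54 genes taken by name from the 24940 genes listed in each of 4 RNA-seq count tables. All 54 were found in every table and passed the low-count filter in each. Bone marrow-derived macrophages (BMDMs) were grown with M-CSF from bone marrow of C57BL/6 mice aged 8 to 12 weeks, and 44 libraries formed 22 groups of 2 replicates. The first table, called the NCoR table here, held wild type (WT) BMDMs, which carried Ncor fl/fl alleles without Cre, and NCoR knockout (NKO) BMDMs, which carried the same alleles with LysM-Cre. Cre driven from the Lyz2 locus acts in myeloid cells, and NCoR is the corepressor that binds the histone deacetylase HDAC3. Both genotypes received vehicle (Veh), KLA, poly I:C, IFNβ or IL4 for 6 h, or RANKL for 12 h. KLA (Kdo2 lipid A) is an agonist of TLR4, poly I:C mimics double-stranded RNA and is read by TLR3, IL4 drives wound-repair macrophages, and RANKL drives osteoclast formation. The RGFP966 table held wild type BMDMs with vehicle, with KLA, or with KLA and RGFP966, an inhibitor of HDAC3. The Pgc1b table held Pgc1b fl/fl BMDMs without Cre (Pgc1b_flox) and with LysM-Cre (Pgc1b_flox_Cre), each with vehicle or KLA, and Ppargc1b encodes the coactivator PGC1β. The TBK1i table held wild type BMDMs with DMSO, with DMSO and KLA, or with KLA and TBK1i, the TBK1 inhibitor GSK8612. Both inhibitors were added 12 h before KLA, when serum was lowered.

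Type I interferon binds a receptor whose signal turns on antiviral genes through interferon-stimulated response elements in their promoters. TLR4 and TLR3 both reach the kinase TBK1 through the adaptor TRIF, TBK1 activates IRF3, and IRF3 induces the IFNβ gene and part of the antiviral genes directly. The products act at many points of a viral life cycle: they sense RNA, block translation, edit or degrade RNA, stop entry or release, and tag proteins with ISG15.

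Promoters of 5 members are shown because these genes stood at the ends of the ranking by TBK1 inhibition described below. Rsad2 and Oasl1 were among the 3 members lowered most, and Trim25, Ifi203 and Ifitm3 were the 3 lowered least. Each line gives 250 bases upstream of the transcription start, 5′ to 3′ on the strand of the gene, from RefSeq promoters on GRCm38.p6. Capitals mark GAAANNGAA, the core of the interferon-stimulated response element, found on either strand. The windows are chr12:26456453-26456702 on the minus strand for Rsad2, chr5:114922990-114923239 on the plus strand for Oasl1, chr11:88999153-88999402 on the plus strand for Trim25, chr1:173942493-173942742 on the minus strand for Ifi203, and chr7:141010745-141010994 on the minus strand for Ifitm3. Ifi44, the member with the most negative fitted value, is not shown because its transcript start in the tables differs from that in RefSeq.
Rsad2: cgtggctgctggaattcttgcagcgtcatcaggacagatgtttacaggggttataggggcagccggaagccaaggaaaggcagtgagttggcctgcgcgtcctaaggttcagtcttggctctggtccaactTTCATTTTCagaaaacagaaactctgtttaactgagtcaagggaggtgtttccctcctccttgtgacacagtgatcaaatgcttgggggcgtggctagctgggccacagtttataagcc
Oasl1: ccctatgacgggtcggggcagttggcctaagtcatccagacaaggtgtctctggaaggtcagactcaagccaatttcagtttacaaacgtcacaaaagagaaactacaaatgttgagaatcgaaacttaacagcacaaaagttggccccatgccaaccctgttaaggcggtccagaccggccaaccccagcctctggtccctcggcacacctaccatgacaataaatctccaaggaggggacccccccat
Trim25: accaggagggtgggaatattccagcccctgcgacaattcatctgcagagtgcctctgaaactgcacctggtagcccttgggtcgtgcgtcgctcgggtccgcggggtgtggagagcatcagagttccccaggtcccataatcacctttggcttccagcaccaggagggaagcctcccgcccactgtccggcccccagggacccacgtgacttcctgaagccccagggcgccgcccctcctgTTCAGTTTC
Ifi203: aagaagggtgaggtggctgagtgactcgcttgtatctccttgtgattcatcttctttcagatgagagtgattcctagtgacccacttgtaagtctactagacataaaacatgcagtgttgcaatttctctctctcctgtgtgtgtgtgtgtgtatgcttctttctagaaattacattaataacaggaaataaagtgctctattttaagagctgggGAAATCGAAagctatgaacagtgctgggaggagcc
Ifitm3: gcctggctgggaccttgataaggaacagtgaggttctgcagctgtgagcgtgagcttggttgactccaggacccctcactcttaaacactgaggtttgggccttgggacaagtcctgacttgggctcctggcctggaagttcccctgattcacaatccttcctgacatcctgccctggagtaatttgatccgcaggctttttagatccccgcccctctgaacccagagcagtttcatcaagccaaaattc

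The match began 119 bases upstream of the start in Rsad2, 35 bases upstream in Ifi203 and 9 bases upstream in Trim25. Neither the Oasl1 nor the Ifitm3 window held one, although 2 matches in Ifitm3 reached into the 50 bases after its start. RefSeq promoters of 300 bases, 250 before and 50 after the start, were listed for 42 of the 54 members, with 53 promoters in all. Of these 53, 26 (49.1%) held GAAANNGAA on either strand, against 8.56% of all 32851 promoters. TTCNNNGAA, the gamma-activated site, was in 8 (15.1%) against 8.3% of all, and TGANTCA, the AP-1 site, in 10 (18.9%) against 7.81% of all. In 2 member promoters a GAAANNGAA match overlapped a TTCNNNGAA match. These are matches of letters and not measured binding.

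Libraries held 8323493 to 16783155 counts assigned to genes, and 3 counts, taken as the floor of detection, corresponded to 0.179 to 0.36 CPM (counts scaled to library size) before TMM scaling, covering counting error only. Levels below are TMM-scaled CPM, and a member was called when its fold change was above 1.5 and its Benjamini-Hochberg adjusted p, from the quasi-likelihood test of edgeR, was below 0.05. Counts of members at an unadjusted p carry no share of all genes at that threshold, nor do most counts without the fold threshold. Macrophage markers were present in every library, whereas 5 neutrophil markers summed to 990 to 1440 CPM in the RANKL libraries against 3.01 to 7.15 CPM in WT_Veh, and RANKL columns are named as osteoclasts. Date stamps in the library names, counted in days from the vehicle libraries, were -115 for WT_KLA, -1516 for NKO_KLA and -536 for the RANKL libraries of both genotypes. NKO_KLA also differed in sex-linked transcripts, with Xist at 0 CPM against 721 to 1110 CPM in the other 22 libraries of the table. In the Pgc1b table Ppargc1b mRNA was not lower with Cre at KLA (9.5 ± 1.08 CPM in Pgc1b_flox_Cre_KLA against 7.29 ± 0.723 CPM in Pgc1b_flox_KLA, SD, n = 2). The column names of Pgc1b_flox_Cre_KLA state no time. Ncor1 fell in NKO_Veh to 57 ± 0.836 CPM from 166 ± 4.85 CPM (SD, n = 2). The labels do not say that replicates came from separate cultures, so p-values measure the spread between these samples, which may be technical. An exact permutation test of 2 libraries against 2 cannot reach p below 0.05, so all calls rest on a spread shared across genes. In such bulk samples, fewer cells of a type and less RNA per cell cannot be told apart.

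The sum of the 54 members took 0.397% and 0.565% of gene counts in the WT_Veh libraries. It reached 1.46% and 1.61% with IFNβ, 7.57% and 7.78% with poly I:C, and 6.35% and 6.27% with KLA. The plot of levels by group shows the same order in nearly all role classes, with the vehicle, IL4 and RANKL columns low, IFNβ in between, and poly I:C and KLA high. Within the NCoR libraries, 19 members were highest in NKO_KLA, 17 in WT_KLA, 15 in WT_PolyIC and 3 in NKO_PolyIC. The lowest group was NKO_Veh for 30 members, NKO_IL4 for 15, WT_IL4 for 6 and WT_RANKL for 3. In some members the end group overlapped its neighbour, such as WT_KLA and NKO_KLA in Oas1a or NKO_IL4 and NKO_Veh in Daxx. NKO_KLA also differed in date stamp and sex-linked transcripts, as given above.

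**Figure D1:**
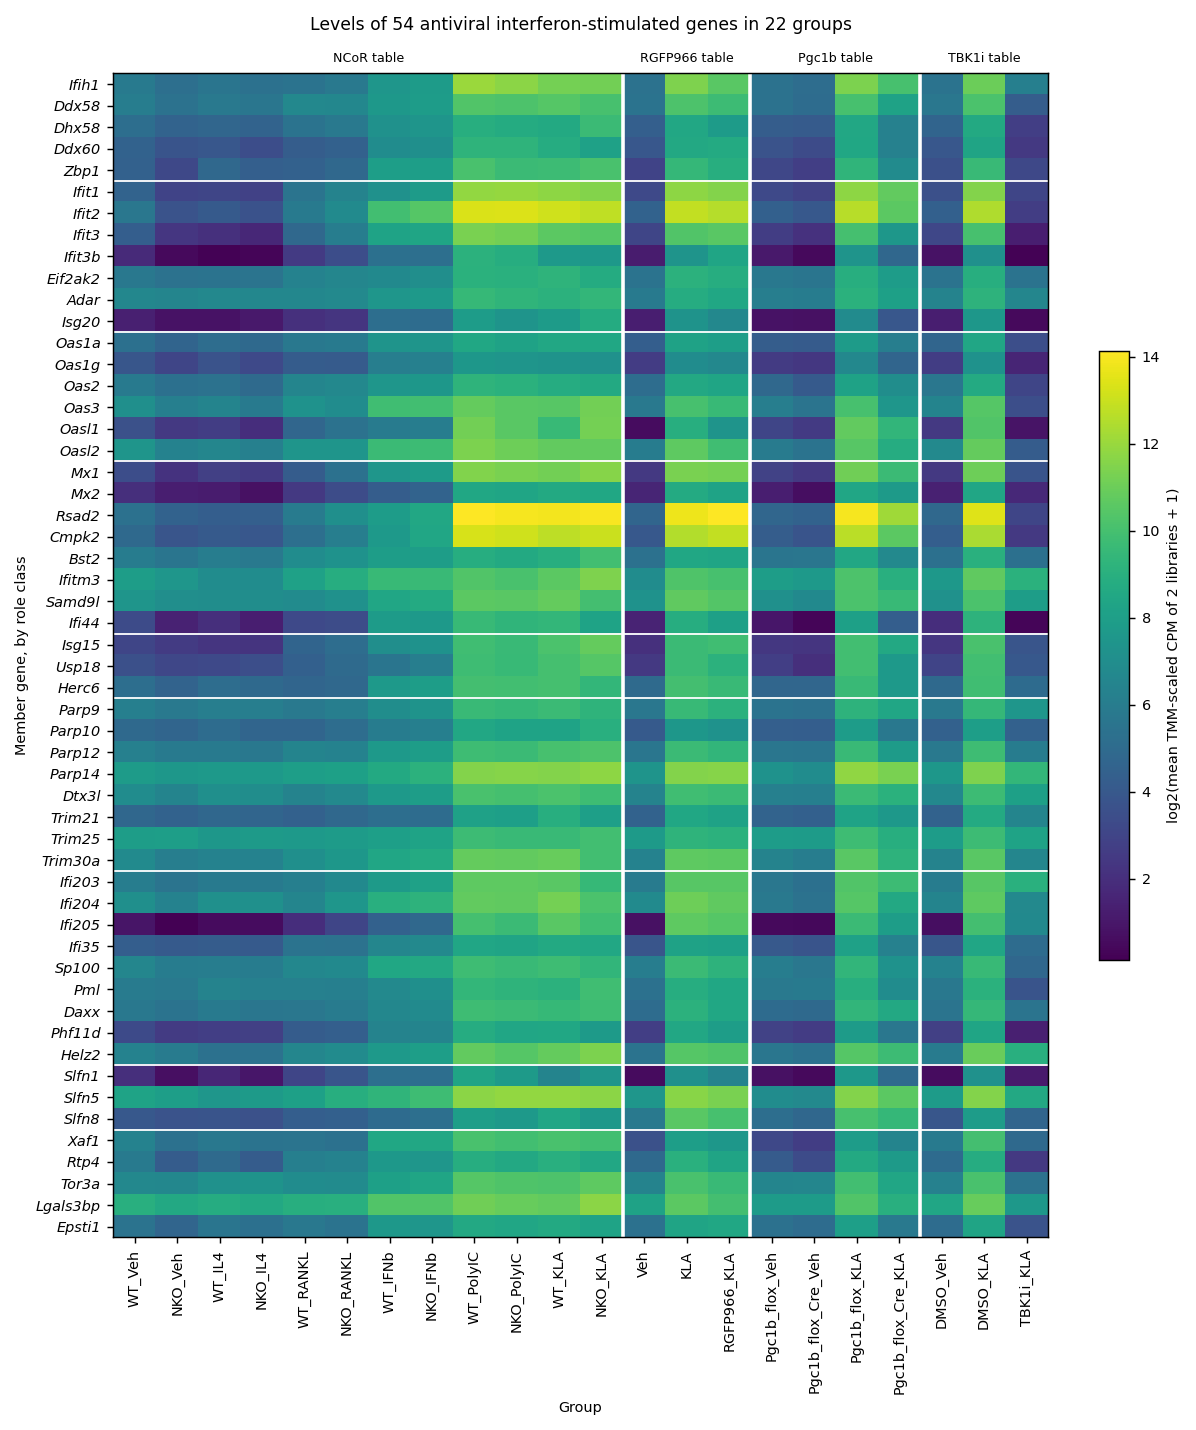
Mean TMM-scaled CPM of 2 libraries, plus 1, on a log2 colour scale, for 54 members (rows, by role class) in 22 groups (columns, by table, white lines between tables). Most members are dark at vehicle and bright with poly I:C or KLA, and the TBK1i_KLA column is dark again; tables were scaled separately, so levels compare within a table.

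The question of which signals raise these genes was addressed in WT BMDMs. IFNβ raised 52 of 54 members, where 4.09% of all genes tested were called higher, with a median log2 fold change of 2.00 against 0 over all genes. Fewer members were called with IFNβ when only the compared groups were fitted, as given in the section on processing. Poly I:C raised all 54 (22.2% of all genes), with a median of 4.00. KLA raised all 54 in the NCoR table (25.4% of all genes, median 4.07), all 54 in the RGFP966 table (27.9%, median 4.51), all 54 in the Pgc1b table (22.8%, median 4.6) and all 54 in the TBK1i table (29.6%, median 4.18). The KLA response was therefore measured with 4 separate sets of libraries. In the NCoR table WT_KLA carried a stamp of -115 days from WT_Veh, so ligand and stamp cannot be told apart there. Within each of the other tables the control KLA and vehicle libraries shared a stamp. The 2 members not called with IFNβ were ubiquitin ligases, Trim21 with a log2 fold change of 0.42 ± 0.081 (SE) and Trim25 with 0.09 ± 0.053 (SE).

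The WT vehicle libraries were unequal, which touches each response in that table. WT_Veh replicate 2 was higher than replicate 1 in 54 of 54 members, with a median log2 ratio of 0.62 and a range of 0.03 to 1.77, whereas the medians of the other 21 pairs lay between -0.14 and 0.17. Isg15 was at 3.10 CPM in replicate 1 and 11.7 CPM in replicate 2, and Ifi44 at 4.27 and 14.2 CPM. Between these libraries 7 macrophage markers summed to 16800 and 17200 CPM, and 4 markers of plasmacytoid dendritic cells, a cell type that makes much interferon, to 1.51 and 1.44 CPM with 2 of the 4 at 0 in each. With replicate 1 alone as the vehicle control, IFNβ raised 52 members with a median of 2.30, poly I:C raised 54 with a median of 4.33, and KLA raised 54 with a median of 4.36. The plot of the vehicle libraries shows this gap gene by gene.

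**Figure D2:**
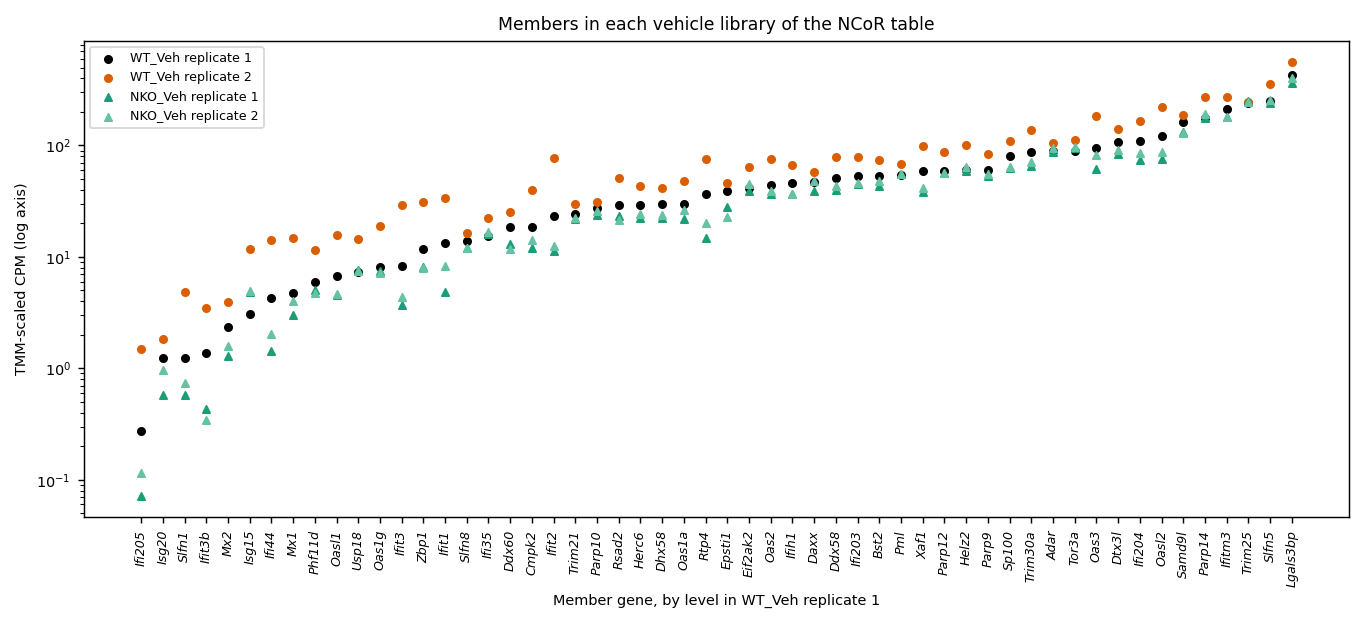
TMM-scaled CPM (log axis) of each member in the 2 WT_Veh and 2 NKO_Veh libraries, with members ordered by WT_Veh replicate 1. WT_Veh replicate 2 lies above replicate 1 for all 54 members, and NKO_Veh lies mostly below both.

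Among the sensors of nucleic acid, Ifih1 encodes MDA5 and Ddx58 encodes RIG-I, the cytosolic receptors for viral RNA, Dhx58 encodes their regulator LGP2, Ddx60 encodes a related helicase, and Zbp1 encodes a sensor of Z-form nucleic acid. All 5 rose with IFNβ, by log2 fold changes of 1.58 to 3.57, and with poly I:C, by 3.78 to 6.23. Zbp1 had the highest level per transcript length of the 5 in WT_IFNb. It measured 11.7 and 31.3 CPM in WT_Veh, 238 and 271 CPM in WT_IFNb, 1086 and 1138 CPM in WT_PolyIC, and 875 and 852 CPM in WT_KLA. The groups did not overlap, and the log2 fold change was 3.57 ± 0.24 (SE) with IFNβ and 5.33 ± 0.24 (SE) with KLA. Ifih1 had the largest poly I:C response of the class, at 6.23, but an IFNβ response of 1.66.

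The RNA-binding and translation class holds Ifit1, Ifit2, Ifit3 and Ifit3b, whose products bind viral RNA and block its translation, Eif2ak2, encoding the kinase PKR, Adar, encoding an RNA editing enzyme, and Isg20, encoding an exonuclease. All 7 rose with IFNβ, with a class median of 3.98, and with poly I:C, with a class median of 7.22. Ifit2 measured 23.2 and 77.2 CPM in WT_Veh, 857 and 1059 CPM in WT_IFNb, 10400 and 10850 CPM in WT_PolyIC, and 9185 and 8864 CPM in WT_KLA. No 2 of these groups overlapped, and the log2 fold change with IFNβ was 4.25 ± 0.33 (SE). Adar and Eif2ak2 had the smallest responses of the class, 0.86 and 1.06 with IFNβ. Ifit3 and Ifit3b are near-identical copies, so the split of reads between them is uncertain.

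The oligoadenylate synthetase class holds Oas1a, Oas1g, Oas2 and Oas3, related by sequence to the enzymes that make the activator of RNase L, and Oasl1 and Oasl2, their synthetase-like relatives. All 6 rose with IFNβ, by 1.61 to 2.75, and with poly I:C, by 3.16 to 7.67. Oasl2 measured 123 and 221 CPM in WT_Veh, 787 and 857 CPM in WT_IFNb, 2645 and 2750 CPM in WT_PolyIC, and 1741 and 1741 CPM in WT_KLA. The poly I:C libraries were the highest, and the vehicle and IFNβ libraries did not overlap (log2 fold change 2.26 ± 0.17, SE). Oasl1 set the upper end of the class at poly I:C, with 7.67, and rose by 2.44 with IFNβ. Oas1a and Oas1g share sequence, and their reads may be split.

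The class acting on viral entry, replication or release holds Mx1 and Mx2, dynamin-like GTPases of which Mx1 is defective in many inbred mouse strains, Rsad2, encoding viperin, Cmpk2, encoding a nucleotide kinase, Bst2, encoding tetherin, Ifitm3, encoding a membrane protein that blocks fusion, Samd9l, and Ifi44. All 8 rose with IFNβ, from 0.96 in Samd9l to 4.61 in Ifi44, the largest IFNβ response among all 54 members. Ifitm3 measured 212 and 269 CPM in WT_Veh, 783 and 766 CPM in WT_IFNb, 1277 and 1279 CPM in WT_PolyIC, and 1566 and 1521 CPM in WT_KLA. Its log2 fold change was 1.69 ± 0.10 (SE) with IFNβ and 2.68 ± 0.10 (SE) with KLA. Rsad2 measured 29.03 and 50.63 CPM in WT_Veh, 209 and 262 CPM in WT_IFNb, 17400 and 17850 CPM in WT_PolyIC, and 15390 and 15270 CPM in WT_KLA. Its levels with poly I:C and KLA were far above those with IFNβ at the single time measured.

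The ISG15 class holds Isg15, a ubiquitin-like protein, Usp18, which removes it and damps the interferon receptor, and Herc6, its ligase in mice. Isg15 measured 3.10 and 11.7 CPM in WT_Veh, 128 and 132 CPM in WT_IFNb, 935 and 903 CPM in WT_PolyIC, and 1173 and 1162 CPM in WT_KLA. These groups did not overlap, and the log2 fold change was 4.13 ± 0.31 (SE) with IFNβ and 7.30 ± 0.30 (SE) with KLA. Usp18 rose by 2.07 and Herc6 by 2.48 with IFNβ, and by 6.36 and 4.78 with poly I:C.

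Of the ADP-ribosylation and TRIM class, Parp9 and Dtx3l encode partners in one complex, Parp10, Parp12 and Parp14 encode ADP-ribosyltransferases, Trim25 encodes a ligase that activates RIG-I, Trim21 encodes a cytosolic antibody receptor, and Trim30a encodes a regulator of TLR signals. This class had the lowest IFNβ median, 0.80, and 6 of its 8 members rose, yet all 8 rose with poly I:C, with a median of 3.52. Trim30a measured 87.4 and 136 CPM in WT_Veh, 318 and 359 CPM in WT_IFNb, 1765 and 1862 CPM in WT_PolyIC, and 1877 and 1844 CPM in WT_KLA. Its groups were separate except for WT_PolyIC and WT_KLA, which overlapped, and its log2 fold change with IFNβ was 1.60 ± 0.14 (SE). Trim25 measured 241 and 247 CPM in WT_Veh, 259 and 261 CPM in WT_IFNb, and 830 and 843 CPM in WT_PolyIC. Its IFNβ and vehicle libraries thus lay close together, while poly I:C stood apart.

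The nuclear class holds Ifi203, Ifi204 and Ifi205, of the p200 family of DNA-binding proteins, Sp100, Pml and Daxx, components of PML nuclear bodies, Ifi35, Phf11d, and Helz2, a helicase. All 9 rose with IFNβ, by 0.80 to 4.54, and with poly I:C, by 3.21 to 10.14. Ifi204 measured 111 and 166 CPM in WT_Veh, 467 and 530 CPM in WT_IFNb, 1712 and 1763 CPM in WT_PolyIC, and 2392 and 2282 CPM in WT_KLA. The log2 fold change was 1.85 ± 0.13 (SE) with IFNβ. Ifi205 had the largest poly I:C and KLA responses of the 54, 10.14 and 10.69, from 4 and 22 counts in the WT_Veh libraries to 9198 and 8873 counts in WT_KLA. Ifi203, Ifi204 and Ifi205 are paralogs, and their reads may be split.

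The Schlafen class holds Slfn1, Slfn5 and Slfn8, of a family that restrains cell growth and, in some members, translation of viral RNA. All 3 rose with IFNβ, by 3.58 in Slfn1, 1.04 in Slfn5 and 1.05 in Slfn8. Slfn5 measured 252 and 359 CPM in WT_Veh, 588 and 672 CPM in WT_IFNb, 3336 and 3433 CPM in WT_PolyIC, and 3863 and 3725 CPM in WT_KLA. Each stimulus lay above vehicle without overlap, and the IFNβ log2 fold change was 1.04 ± 0.12 (SE).

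The last class holds Xaf1, a partner of the apoptosis inhibitor XIAP, Rtp4, Tor3a, an AAA ATPase of the torsin family, Lgals3bp, a secreted glycoprotein that binds galectins, and Epsti1. All 5 rose with IFNβ, by 1.39 to 2.17, and with poly I:C, by 2.14 to 3.81. Lgals3bp measured 429 and 556 CPM in WT_Veh, 1252 and 1332 CPM in WT_IFNb, 2193 and 2160 CPM in WT_PolyIC, and 1752 and 1735 CPM in WT_KLA. It stood highest with poly I:C and lowest at vehicle, with an IFNβ log2 fold change of 1.39 ± 0.073 (SE).

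Poly I:C gave higher levels than IFNβ for all 54 members, where 41.9% of all genes differed in either direction. The median log2 difference was 2.44, from 0.72 in Ifitm3 to 6.23 in Rsad2. By role, the median difference was 3.12 for the class acting on entry, replication or release and 1.25 for the class led by Lgals3bp.

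IL4 raised 0 of the 54 members by edgeR's test, where 6.63% of all genes were called higher, and 0 by DESeq2, while 3 were higher at an unadjusted p below 0.05. It lowered 17 members (6.46% of all genes), among them Ifit3, with a log2 fold change of -2.54. Ifit3b, also called, had 20 and 51 counts in WT_Veh and 4 and 0 counts in WT_IL4, a ratio of 0.0638 with a 95% counting interval of 0.0169 to 0.171. With WT_Veh replicate 1 alone, 4 were lower and 3 higher, and the median moved from -0.47 to -0.03. With replicate 2 alone, 30 were lower. The count under IL4 thus rests on which vehicle library is used.

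RANKL raised 16 members (29.6%), near the 24.1% of all genes called higher, and lowered Xaf1 and Ifi204 (19.8% of all genes were called lower). RANKL libraries were taken at 12 h and vehicle at 6 h, and the RANKL stamp was -536 days from vehicle. Ligand, time and stamp therefore cannot be told apart in this contrast. The largest rise was in Isg15, with a log2 fold change of 1.70, followed by Ifi205 with 1.66, and the median was 0.26. With WT_Veh replicate 1 alone 28 members were called, all higher, with a median of 0.65, and with replicate 2 alone 7 were higher and 8 lower. RANKL libraries also held the neutrophil markers given above, and stromal markers at 177 to 296 summed CPM against 79.7 to 89 CPM in WT_Veh, and their part in these values was not tested.

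To ask how far the KLA response of each member depended on TBK1, TBK1i_KLA was compared with DMSO_KLA. All 54 members fell, where 18.3% of all genes were called lower, with a median log2 fold change of -4.96 and a range from -11.06 in Ifi44 to -1.45 in Trim25. The summed share of the members in gene counts went from 5.48% and 5.60% in DMSO_KLA to 0.489% in both TBK1i_KLA libraries, and was 0.402% and 0.392% in DMSO_Veh. All libraries of this table carried one date stamp.

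Ifi44 measured 2.96 and 2.88 CPM in DMSO_Veh, 576 and 604 CPM in DMSO_KLA, and 0.501 and 0 CPM in TBK1i_KLA, from 5 and 0 counts. Its fitted log2 fold change under TBK1i was -11.06 ± 0.63 (SE), but its mean with the inhibitor lay under the floor of 3 counts, and the ratio of counts was 0.00045 with a 95% counting interval of 0.000146 to 0.00105. Rsad2 measured 27.1 and 28.5 CPM in DMSO_Veh, 11100 and 11290 CPM in DMSO_KLA, and 6.22 and 8.46 CPM in TBK1i_KLA. With the inhibitor it stood at 0.0656% of its KLA level and below vehicle, with a log2 fold change of -10.59 ± 0.11 (SE). Oasl1 measured 5.07 and 3.69 CPM in DMSO_Veh, 1257 and 1276 CPM in DMSO_KLA, and 1.00 and 0.677 CPM in TBK1i_KLA, a log2 fold change of -10.52 ± 0.34 (SE). The order of Ifi44, Rsad2 and Oasl1 was within these errors. Cmpk2, Ifit2 and Ifit3b followed at -10.16, -10.03 and -9.70, the last of them from 2 and 1 counts in TBK1i_KLA, a ratio of 0.00113 with a 95% counting interval of 0.000233 to 0.00331.

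At the other end, Trim25 measured 236 and 236 CPM in DMSO_Veh, 836 and 846 CPM in DMSO_KLA, and 310 and 304 CPM in TBK1i_KLA. It kept 36.5% of its KLA level, and its log2 fold change was -1.45 ± 0.041 (SE). Ifi203 measured 66.2 and 62.6 CPM in DMSO_Veh, 1386 and 1536 CPM in DMSO_KLA, and 523 and 523 CPM in TBK1i_KLA, keeping 35.8% of its KLA level (log2 fold change -1.48 ± 0.038, SE). Ifitm3 measured 198 and 191 CPM in DMSO_Veh, 1695 and 1652 CPM in DMSO_KLA, and 529 and 534 CPM in TBK1i_KLA (log2 fold change -1.65 ± 0.037, SE). For each of these 3 the inhibited libraries lay between vehicle and KLA without overlap.

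What KLA still did in the presence of TBK1i was read against DMSO_Veh. Of the 54 members, 17 stayed above vehicle (26.8% of all genes), 24 lay below vehicle (30.5% of all genes) and 13 were not called, with a median log2 fold change of -0.01. All 6 of the oligoadenylate synthetase class and all 5 of the class led by Lgals3bp lay below vehicle, and all 3 of the Schlafen class stayed above it. Of the Schlafen members, Slfn1 rested on 17 and 6 counts in TBK1i_KLA against 11 and 5 counts in DMSO_Veh. Its nearest libraries almost met, at 0.677 CPM in TBK1i_KLA and 0.664 CPM in DMSO_Veh. In the ADP-ribosylation and TRIM class 4 stayed above vehicle and 4 were not called. In the RNA-binding and translation class 4 lay below and 3 were not called. The sensors were divided, with Ifih1 above vehicle by 0.73, Ddx58, Dhx58 and Ddx60 below, and Zbp1 not called. Ifi205 kept the largest response of the 54, from 0.603 and 0.501 CPM in DMSO_Veh to 105 and 115 CPM in TBK1i_KLA, a log2 fold change of 7.61 ± 0.32 (SE), against 949 and 1058 CPM in DMSO_KLA. Ifi203 and Helz2 each kept a response of 3.02. No library received TBK1i without KLA, so the effect of the inhibitor on unstimulated levels cannot be told apart from its effect on the KLA response.

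GAAANNGAA was held by the promoters of 9 of 13 members with a RefSeq promoter that stayed above vehicle under TBK1i, by 6 of 9 that were not called, and by 9 of 20 that lay below. These counts are given as a description.

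**Figure D3:**
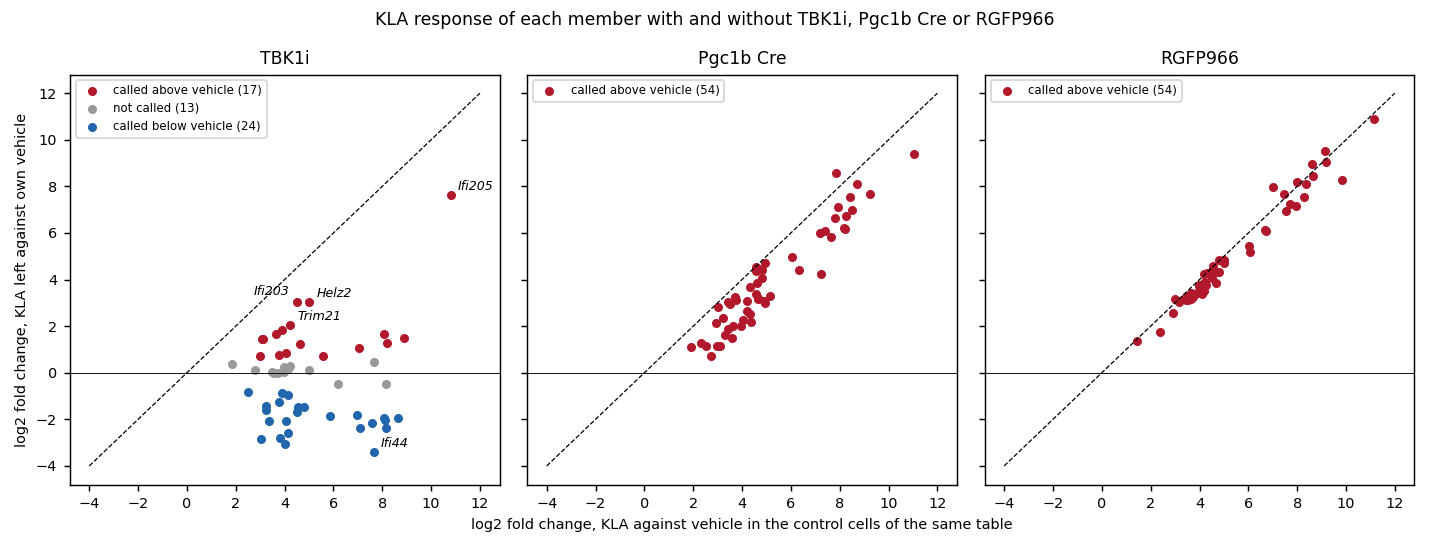
Log2 fold change of KLA against vehicle in the control cells (horizontal) and with TBK1i, Pgc1b Cre or RGFP966 against vehicle (vertical) for 54 members, 1 panel per table; the dashed line marks equal responses. Under TBK1i 17 members stay above vehicle, 24 lie below and 13 are not called, whereas with Cre and with RGFP966 all 54 stay above vehicle.

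Cre in the Pgc1b table was compared at KLA. Of the 54 members 52 were lower in Pgc1b_flox_Cre_KLA than in Pgc1b_flox_KLA, where 12.9% of all genes were called lower, with a median log2 fold change of -1.70 and a largest adjusted p of 0.0403 among the 52. All 54 were still raised by KLA in Cre cells (19.2% of all genes), with a median of 3.28 against 4.6 without Cre. The summed share of the members was 5.71% and 5.88% without Cre and 2.31% and 2.61% with Cre. Ppargc1b mRNA was not lower in Pgc1b_flox_Cre_KLA, as given above, and the gene totals do not show whether the floxed exons were lost. The paper examined PGC1β protein in BMDMs of both genotypes by immunoblot, which the RNA values do not address.

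Ifi44 measured 1.70 and 0.268 CPM in Pgc1b_flox_Veh, 0.119 and 0.401 CPM in Pgc1b_flox_Cre_Veh, 277 and 270 CPM in Pgc1b_flox_KLA, and 14.7 and 22.9 CPM in Pgc1b_flox_Cre_KLA. It had the most negative Cre effect, -3.87 ± 0.22 (SE) on the log2 scale (edgeR's adjusted p = 4.24e-07). Isg20 measured 0.487 and 1.01 CPM in Pgc1b_flox_Veh, 0.952 and 0.468 CPM in Pgc1b_flox_Cre_Veh, 123 and 114 CPM in Pgc1b_flox_KLA, and 13.2 and 14.8 CPM in Pgc1b_flox_Cre_KLA (log2 fold change -3.09 ± 0.14, SE). Slfn1 measured 0.974 and 0.402 CPM in Pgc1b_flox_Veh, 0.298 and 0.535 CPM in Pgc1b_flox_Cre_Veh, 182 and 201 CPM in Pgc1b_flox_KLA and 26.1 and 35.9 CPM in Pgc1b_flox_Cre_KLA (log2 fold change -2.63 ± 0.12, SE). In each the KLA libraries with Cre lay wholly below those without.

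The 3 smallest Cre effects were in Parp14, Samd9l and Slfn8. Parp14 measured 162 and 145 CPM without Cre and 118 and 130 CPM with Cre at vehicle, 3505 and 3715 CPM without Cre and 2418 and 2621 CPM with Cre at KLA, and was not called by fold (log2 fold change -0.52 ± 0.061, SE). Samd9l measured 155 and 126 CPM without Cre and 108 and 109.8 CPM with Cre at vehicle, and 1046 and 1247 CPM without Cre and 702 and 844 CPM with Cre at KLA (-0.57 ± 0.11, SE, not called). Slfn8 measured 38.2 and 31.9 CPM without Cre and 20.9 and 32.5 CPM with Cre at vehicle, and 997 and 1115 CPM without Cre and 631 and 768 CPM with Cre at KLA (-0.59 ± 0.18, SE, called). At KLA none of these 3 overlapped between genotypes. By role, the ADP-ribosylation and TRIM class had a median of -0.81 and the sensors -2.23.

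At vehicle, Cre cells were lower in 5 members, Oas3, Oasl1, Usp18, Xaf1 and Rtp4, where 0.139% of all genes were called lower, with a median of -0.29. The test of the difference between the Cre effects at KLA and at vehicle was negative in 40 members (11.2% of all genes), with a median of -1.35. Ifi44 was not among the 40, at -2.04, its vehicle levels resting on 21 and 4 counts without Cre and 2 and 6 counts with Cre.

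RGFP966 was compared at KLA in its own table. It lowered 12 of 54 members, where 9.54% of all genes were called lower, and raised Ifit3b (15.8% of all genes were called higher), with a median of -0.32. With KLA and RGFP966 all 54 were above the vehicle libraries, which had no RGFP966 (28.0% of all genes). The median log2 fold change was 4.27, against 4.51 for KLA alone. No library received RGFP966 without KLA, so its effect on unstimulated levels cannot be told apart from its effect on the KLA response. The 12 were Oasl1, Ifih1, Oasl2, Ifi44, Slfn1, Rtp4, Dhx58, Lgals3bp, Daxx, Isg20, Phf11d and Usp18, and their largest adjusted p was 2.44e-13. Without the fold threshold 41 members were lower, as were 3001 of all 12196 genes. RGFP966_KLA replicate 2 carried a stamp of -50 days against -64 days for the other 5 libraries, and without it 12 members were again lower.

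Oasl1 measured 0.610 and 0.411 CPM in Veh, 518 and 451 CPM in KLA, and 168 and 157 CPM in RGFP966_KLA. It was lowered most, to 33.6% of its KLA level, with a log2 fold change of -1.57 ± 0.061 (SE). Ifih1 measured 40.2 and 41.5 CPM in Veh, 2827 and 2699 CPM in KLA and 1521 and 1453 CPM in RGFP966_KLA (-0.89 ± 0.053, SE). Oasl2 measured 64.0 and 62.0 CPM in Veh, 1649 and 1563 CPM in KLA and 926 and 895 CPM in RGFP966_KLA (-0.82 ± 0.054, SE). All 3 were lower in both RGFP966 libraries than in either KLA library.

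Ifit3b measured 1.03 and 1.59 CPM in Veh, 176 and 160 CPM in KLA and 325 and 339 CPM in RGFP966_KLA, a log2 fold change of 0.98 ± 0.061 (SE). Its near-identical copy Ifit3 had a log2 fold change of 0.21 ± 0.055 (SE), and the reads of the pair may be split. Cmpk2 measured 14.4 and 15.5 CPM in Veh, 6285 and 5486 CPM in KLA and 7566 and 7492 CPM in RGFP966_KLA, a log2 fold change of 0.36 ± 0.054 (SE) that stayed under the fold threshold. Rsad2 measured 25.0 and 25.2 CPM in Veh, 14770 and 13690 CPM in KLA and 17980 and 18260 CPM in RGFP966_KLA (0.35 ± 0.052, SE, not called). Cmpk2 and Rsad2, both on chromosome 12, thus lay at the upper end of the RGFP966 ranking while they held ranks 4 and 2 of the members most lowered by TBK1i.

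**Figure D4:**
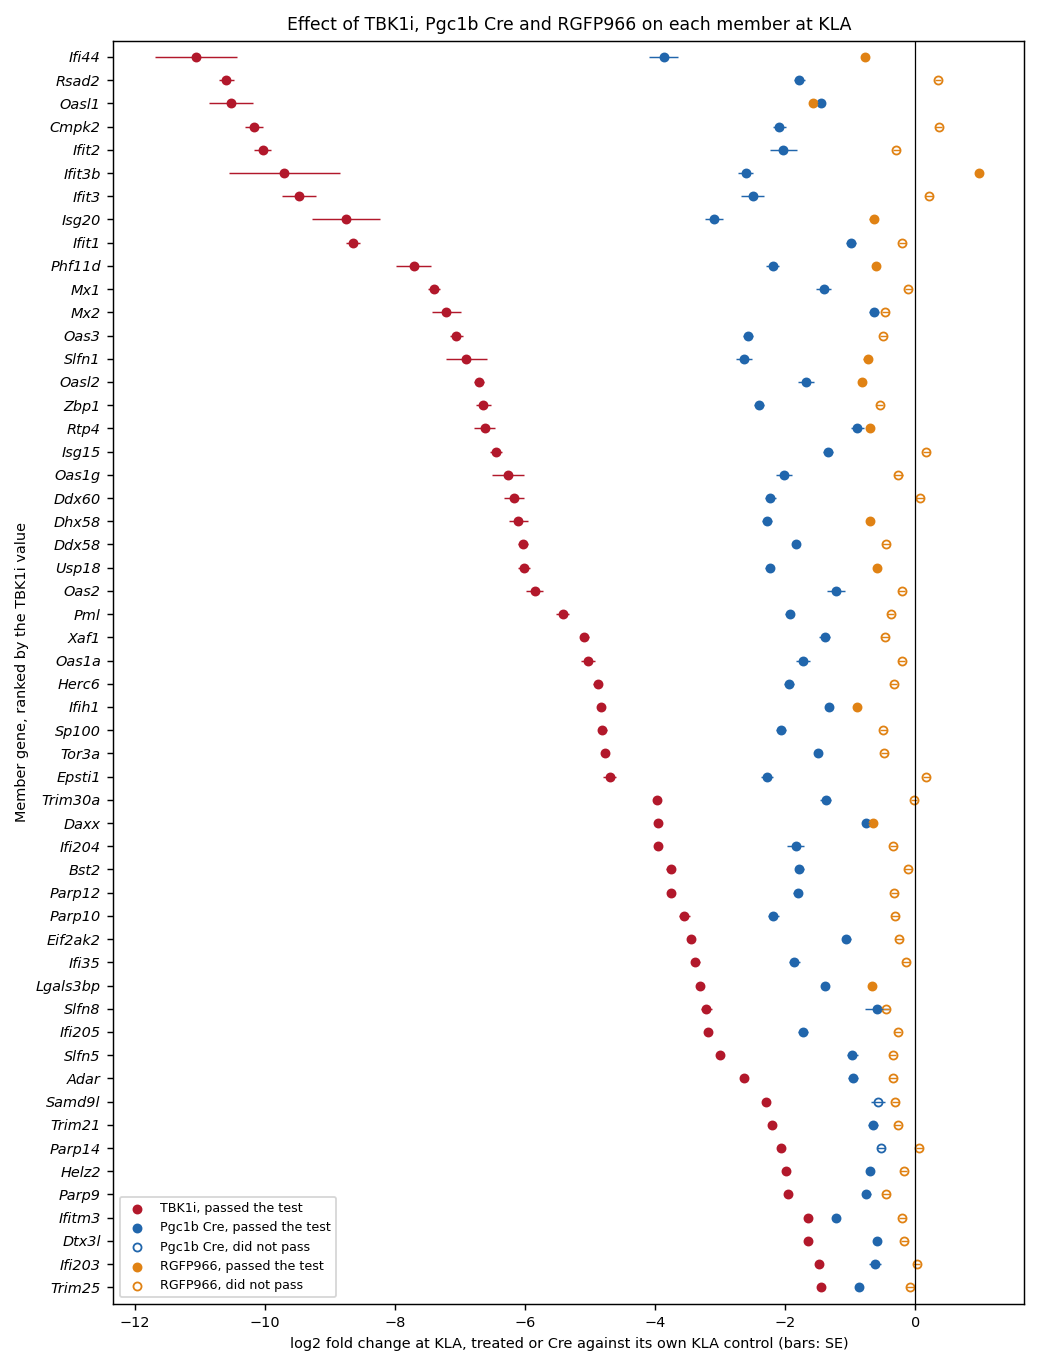
Log2 fold change at KLA (horizontal, bars are SE) for 54 members ranked by the TBK1i value (vertical), with TBK1i, Pgc1b Cre and RGFP966 each against its own KLA control; filled points passed the test. TBK1i values run from -11.06 to -1.45, Cre values from -3.87 to -0.52 and RGFP966 values from -1.57 to 0.98.

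Each member was then ranked from 1, the most lowered, to 54 in the 3 perturbations, which share no libraries. Ifi44 had the lowest sum of ranks, with ranks 1 under TBK1i, 1 with Cre and 4 under RGFP966. Isg20 followed with ranks 8, 2 and 10, and Slfn1 with ranks 14, 3 and 5. The 10 most lowered members under TBK1i and those with Cre had 4 in common, Ifi44, Ifit3, Ifit3b and Isg20. Those under TBK1i and RGFP966 had 3 in common, Ifi44, Isg20 and Oasl1, and those with Cre and RGFP966 had 4, Ifi44, Isg20, Slfn1 and Dhx58. Ifi44 and Isg20 were in all 3 lists of 10. The TBK1i rank of Isg20 rested on 5 and 3 counts in TBK1i_KLA, and those of Ifi44 and Ifit3b on the low counts given above. The numbers in common were not tested.

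Across the 54 genes, which are not independent replicates and differ in base level and depth, the TBK1i and Cre effects had a Spearman correlation of 0.63 and a Pearson correlation of 0.63. The Spearman value was 0.17 between TBK1i and RGFP966 (Pearson 0.03) and 0.13 between Cre and RGFP966 (Pearson 0.02). The IFNβ response in the NCoR table ran against the TBK1i effect with a Spearman value of -0.79 (Pearson -0.73) and against the Cre effect with -0.66 (Pearson -0.67), and the value was 0.01 with the RGFP966 effect (Pearson 0.09). Members with a larger IFNβ response, such as Ifi44 at 4.61, were thus lowered more by TBK1i and in Cre cells. The KLA response in that table had a Spearman value of -0.55 with the TBK1i effect, -0.24 with the Cre effect and 0.10 with the RGFP966 effect. These values are descriptions and carry no test.

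The other genes of the pathway were given by 27 ligand, receptor, kinase, adaptor and factor genes, of which 24 were tested. KLA raised 20 of the 24 in the TBK1i table (29.6% of all genes). TBK1i lowered 14 (18.3% of all genes) and raised 1 (15% of all genes). Cre lowered 9 (12.9% of all genes), and RGFP966 lowered 4 (9.54% of all genes). Ifnb1, the IFNβ gene, had no counts in DMSO_Veh, 45 and 41 counts in DMSO_KLA and no counts in TBK1i_KLA, so that it was at least 15.2-fold lower with the inhibitor, set against the floor of 3 counts per library. It had 56 and 69 counts in Pgc1b_flox_KLA and 106 and 94 counts in Pgc1b_flox_Cre_KLA, a log2 fold change of 0.42 ± 0.32 (SE, adjusted p = 0.297 in edgeR's test). It had 40 and 70 counts in KLA and 11 and 18 counts in RGFP966_KLA, a log2 fold change of -2.16 ± 0.39 (SE), which was called. Ifnb1 was thus called lower with the inhibitors but not with Cre, where 52 members were lower.

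Irf7, encoding the factor that amplifies type I interferon, changed by a log2 fold change of -8.99 ± 0.15 (SE) under TBK1i, -3.01 ± 0.07 (SE) with Cre and -0.77 ± 0.054 (SE) under RGFP966. Irf7 thus took the same order as the median of the members.

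NKO was compared with WT in each of 6 conditions. At vehicle 29 members were lower in NKO by edgeR's test, where 6.21% of all genes were called in either direction, with a median of -0.64. DESeq2 also called 29 lower, 45 were lower at an unadjusted p below 0.05, and 0 were higher in each of these counts. A fit of only the compared groups called fewer members, as given in the section on processing. With WT_Veh replicate 1 alone 6 members remained of the 29, Oasl2, Ifit1, Ifit3, Ifi44, Epsti1 and Rtp4, with a median of -0.30, and with replicate 2 alone 40 were called. Ifit3b measured 1.38 and 3.49 CPM in WT_Veh and 0.431 and 0.342 CPM in NKO_Veh, from 20 and 51 and from 6 and 6 counts, a log2 fold change of -2.64 ± 0.81 (SE, adjusted p = 0.0115 in edgeR's test). Ifi44 measured 4.27 and 14.2 CPM in WT_Veh and 1.44 and 2.05 CPM in NKO_Veh (-2.37 ± 0.58, SE). Both NKO libraries lay below both WT libraries for each. Ifi205 had 4 and 22 counts in WT_Veh and 1 and 2 counts in NKO_Veh, a ratio of 0.107 with a 95% counting interval of 0.0207 to 0.349, and was not called.

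With IFNβ, 2 members (3.7%) were higher in NKO, a share close to the 3.8% of all genes called in either direction. The median was 0.22. At an unadjusted p below 0.05 26 were higher, a count with no share of all genes beside it. Cmpk2 measured 180 and 230 CPM in WT_IFNb and 319 and 376 CPM in NKO_IFNb (log2 fold change 0.76 ± 0.19, SE). Rsad2 measured 209 and 262 CPM in WT_IFNb and 347 and 406 CPM in NKO_IFNb (0.68 ± 0.16, SE). For both the NKO libraries lay above the WT libraries.

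With poly I:C, only Oasl1 was called, lower in NKO (5.93% of all genes in either direction), and the median was -0.18. Oasl1 measured 2229 and 2343 CPM in WT_PolyIC and 1418 and 1538 CPM in NKO_PolyIC, a log2 fold change of -0.63 ± 0.16 (SE, adjusted p = 0.0122 in edgeR's test), and DESeq2 did not call it. With IL4 0 members were called by edgeR's test (4.24% of all genes in either direction), while 10 were lower and 2 higher at an unadjusted p below 0.05, and DESeq2 called 3 lower.

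With RANKL, 15 members were higher in NKO (13.2% of all genes in either direction), with a median of 0.32, and 1 was lower at an unadjusted p below 0.05. Ifi205 measured 2.94 and 2.72 CPM in WT_RANKL and 6.60 and 8.10 CPM in NKO_RANKL (1.36 ± 0.33, SE). Ifit3 measured 30.2 and 26.8 CPM in WT_RANKL and 60.1 and 70.5 CPM in NKO_RANKL (1.19 ± 0.30, SE). Both genotypes carried the same stamp here. Neutrophil markers summed to 1090 and 990 CPM in WT_RANKL and 1440 and 1370 CPM in NKO_RANKL, stromal markers to 194 and 177 CPM and to 209 and 296 CPM, and plasmacytoid dendritic cell markers to 4.51 and 6.63 CPM and to 8.68 and 5.26 CPM. Their part in these values was not tested.

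With KLA, 11 members were higher and 11 lower in NKO (40.0% of all genes in either direction), a share of members close to that of all genes, with a median of -0.09. Oasl1 measured 729 and 788 CPM in WT_KLA and 2421 and 2362 CPM in NKO_KLA (1.66 ± 0.16, SE). Slfn1 measured 86.0 and 85.0 CPM in WT_KLA and 169 and 178 CPM in NKO_KLA (1.02 ± 0.13, SE). Ifi44 measured 714 and 663 CPM in WT_KLA and 305 and 295 CPM in NKO_KLA (-1.20 ± 0.16, SE), and Ifi203 measured 1504 and 1484 CPM in WT_KLA and 735 and 738 CPM in NKO_KLA (-1.02 ± 0.11, SE). Genotype, date stamp and sex cannot be told apart in this contrast, and 4 dendritic cell markers summed to 24.5 to 31 CPM in NKO_KLA against 4.5 to 4.59 CPM in WT_KLA, and their part in these values was not tested. In a joint fit of 50 members against other control KLA libraries, Slfn1 differed by -0.01 against KLA of the RGFP966 table and by -0.20 against Pgc1b_flox_KLA, and Ifi44 by 0.08 against Pgc1b_flox_KLA, so neither direction held against every control. The 50 are the members with the same transcript in every table, so Oasl1 was not compared with the other controls. The balance of that fit moved with the control, at 9 higher and 11 lower against WT_KLA, 11 and 16 against KLA, 13 and 3 against Pgc1b_flox_KLA, and 9 and 5 against DMSO_KLA, where 37.3% to 46.9% of all genes were called in either direction.

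**Figure D5:**
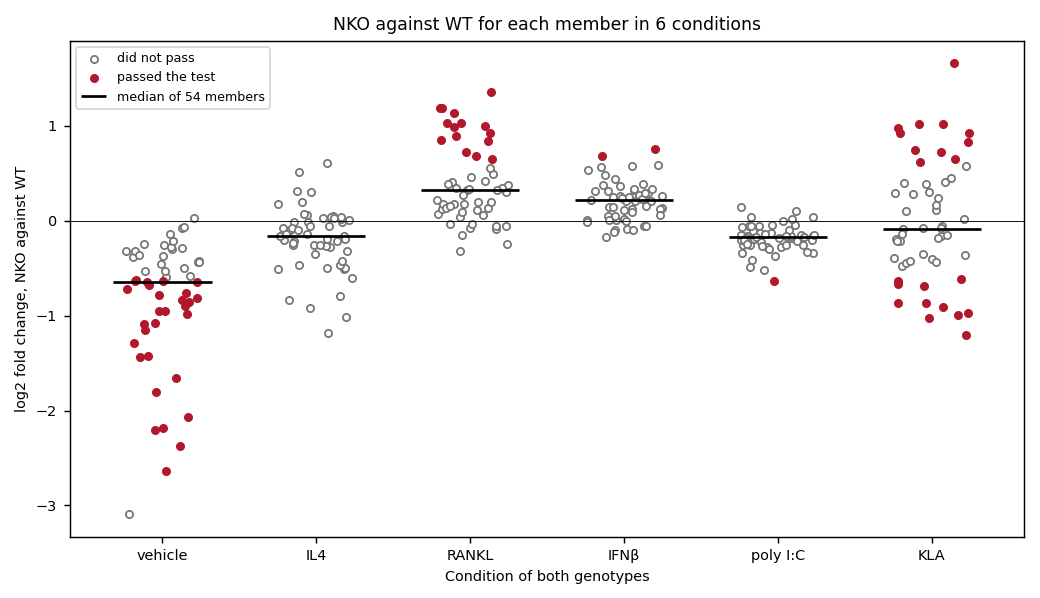
Log2 fold change of NKO against WT (vertical) for 54 members in 6 conditions (horizontal); filled points passed the test and bars mark medians. Medians run from -0.64 at vehicle to 0.32 with RANKL, and with KLA the members spread from -1.20 to 1.66.

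Members whose NKO libraries lay wholly on one side of WT at vehicle and wholly on the other side under a stimulus numbered 33 of 54 for RANKL (18.2% of all genes), 24 for IFNβ (5.83%), 14 for KLA (20.1%), 2 for poly I:C (9.7%) and 2 for IL4 (7.34%). All 33, all 24 and all 14 were wholly below WT at vehicle and wholly above it under the stimulus. With WT_Veh replicate 1 alone the counts were 34 for RANKL (26.2% of all genes), 24 for IFNβ (10.2%), 14 for KLA (29.5%), 7 for poly I:C (15.3%) and 4 for IL4 (12.3%). Replicate 1 was the lower WT_Veh library in all 54 members, so the members wholly below WT at vehicle were the same by construction. Only members above WT at vehicle could be added, so these counts are no check on the vehicle gap. The difference between conditions was not tested.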

How the data were processed

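Bulk RNA-seq was measured in BMDMs. Per the labels and methods, the authors aligned reads to mm10 with STAR and counted exon reads with HOMER, keeping the most abundant transcript per gene, and deposited raw counts in 4 tables. That transcript differed between tables for 4 members, Adar, Ifit2, Mx2 and Oasl1. The methods name strand-specific libraries, yet no strand setting is given for HOMER, and antisense reads may have been included. Tool versions are not given in the sources used here.

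The deposited counts were filtered and TMM-scaled within each table and fitted over all its groups with edgeR 4.0.16 (limma 3.58.1, R 4.3.3), using the quasi-likelihood test with Benjamini-Hochberg adjustment over the genes that passed the filter (NCoR 13407, RGFP966 12196, Pgc1b 12205, TBK1i 12332). Standard errors are Wald errors of the fitted log2 fold change. DESeq2 1.42.0, other filters and scalings, the fit of only the compared groups, a replicate block and leaving out each replicate were alternatives. The code was tested on simulated data drawn from the real means. Library totals of 8323493 to 16783155 counts set the precision.

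Values in every library of the groups compared are given for the 3 members at each end of the TBK1i, Cre and RGFP966 rankings with at least 5 CPM in the KLA control, the member with the highest length-scaled CPM in WT_IFNb in each role class, and the 2 called members with the largest NKO effect in each direction. The IL4 test was planned for higher calls, and lower calls are given beside them. The members and lists were chosen with earlier results of these data known.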

Additional observations from a re-analysis of the deposited data

Results flagged for a closer look

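The effect of Cre differed between KLA and vehicle in 40 members by the test of the interaction itself, where 11.2% of all genes were called in that direction. It was most negative in Isg20, at -3 on the log2 scale.

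NKO libraries lay wholly on opposite sides of the WT libraries at vehicle and under RANKL in 33 members (18.2% of all genes). The counts were 24 for IFNβ (5.83% of all genes), 14 for KLA (20.1%), 2 for poly I:C (9.7%) and 2 for IL4 (7.34%). The 2 for poly I:C were Ifit1 and Trim25, and the 2 for IL4 were Isg20 and Trim30a. These differences were not tested. RANKL and KLA libraries carried other date stamps than the vehicle libraries, and NKO_KLA other stamps than WT_KLA.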

How the results depend on the processing

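Counts of called members stayed within 1.5 times the reported count in 226 of 259 recomputed counts, and of 13965 recomputed member values 13396 kept their direction and call, 294 lost the call, 267 gained it and 8 turned. Without the fold threshold the counts were 2 higher with IL4, 8 for Cre at vehicle, 41 for RGFP966, and for NKO 14 with IFNβ, 14 with poly I:C, 36 with KLA, 6 with IL4 and 25 with RANKL. With only the compared groups they were 29 for IFNβ, 6 for RANKL, 3 for Cre at vehicle, and for NKO 5 at vehicle and 5 with IL4. DESeq2 called 0 in NKO with poly I:C and 3 with IL4, the unfiltered fit called 1 with IL4, and DMSO_KLA as the control in a joint fit gave 14 in NKO with KLA. The cause was not tested, apart from the smaller sample number of the restricted fits.

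Leaving out one replicate gave 49 to 52 members for IFNβ, 0 to 3 higher and 4 to 30 lower for IL4, 7 to 28 for RANKL, 47 to 53 for Cre at KLA, 1 to 6 for Cre at vehicle, 35 to 43 for the interaction, 10 to 14 for RGFP966, and for NKO 6 to 40 at vehicle, 0 to 4 with IFNβ, 0 to 1 with poly I:C, 20 to 22 with KLA and 8 to 13 with RANKL. The ends for IL4, RANKL and NKO at vehicle came from WT_Veh replicates 1 and 2. Without Pgc1b_flox_Cre_Veh replicate 1 Cre at vehicle gave 1, without WT_IFNb replicate 1 NKO gave 0 and without its replicate 2 gave 4, without WT_PolyIC replicate 2 NKO gave 0, and without WT_RANKL replicate 2 NKO gave 8. The RANKL value of Zbp1, 0, moved between -0.54 and 0.88, and that of Ifi44, -0.16, between -0.78 and 0.95, without WT_Veh replicate 1 and 2 in turn. Against KLA of the RGFP966 table NKO with KLA turned in Slfn1 (-0.01) and Xaf1 (1.59), and against Pgc1b_flox_KLA in Ifi205 (0.16), Ifi44 (0.08), Slfn1 (-0.20) and Xaf1 (2.00).

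The labels do not tie replicate numbers across groups, and the deviations of same-numbered samples correlated at -0.0596 to 0.0591, so the numbers did not pair the samples. With a replicate block Cre at vehicle gave 4 members and NKO at vehicle 30, and no other count moved. The median of all genes for KLA in the NCoR table was -0.14 with TMM and -0.07 with DESeq2 size factors. Members under 3 counts, such as Ifit3b under TBK1i, limit the ranking at its low end.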

Other observations

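Unstimulated levels differed between the 6 vehicle groups of the 4 tables, which were scaled separately. Ifi44 ran from 0.26 CPM in Pgc1b_flox_Cre_Veh to 9.21 CPM in WT_Veh, a ratio of 35.4, or 16.4 with WT_Veh replicate 1 alone. WT_Veh was the highest of these groups for 52 members, and for 30 with its replicate 1 alone. Xaf1 ran from 5.27 to 78.8 CPM, a ratio of 15, and Slfn8 from 12.0 CPM in NKO_Veh to 53.8 CPM in the Veh group of the RGFP966 table, a ratio of 4.47. Xaf1 and Slfn8 differed between tables at KLA as well. Xaf1 was at 253 CPM in KLA of the RGFP966 table and 1010 CPM in DMSO_KLA, and Slfn8 at 1490 and 232 CPM. Trim25, the member least lowered by TBK1i, ran from 220.0 to 249 CPM, a ratio of 1.13.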
